A study of Mus musculus with 12 samples.

Results

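The comparison set trimethylation of lysine 4 on histone H3 (H3K4me3) in lincRNA-p21 knockout (KO) against wild type (WT) mouse embryonic fibroblasts (MEFs) that had received a mock treatment. Every peak of both lists was a member, which gave 14897 WT mock and 14326 KO mock peaks, or 29223 of the 128880 peaks in the 8 ChIP lists of the series. The WT cells were labelled lincRNA-p21+/+ and the KO cells lincRNA-p21-/-, and both were primary cultures on a hybrid 129/B6 background. Further libraries used here were H3K4me3 from WT and KO cells given the DNA-damaging agent doxorubicin (labelled 0.5 mM, 24 h), and trimethylated lysine 27 (H3K27me3) from all 4 conditions. Each mark and condition had 1 library, so no test between genotypes was possible, no value here has a replicate check, and differences between cultures, libraries and genotypes cannot be told apart. The labels give neither the deleted part of the gene nor the number of embryos behind each culture. All peak positions are mm9, counted from 1.

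H3K4me3 is placed by the SET1 and MLL methyltransferase complexes on nucleosomes around the start sites of active genes, and most strongly at starts rich in the dinucleotide CpG. Polycomb repressive complex 2 places H3K27me3 over genes held silent, many of them developmental regulators, and promoters that carry both marks are called bivalent. LincRNA-p21, a p53-induced noncoding transcript, starts next to Cdkn1a, the gene of the cell cycle inhibitor p21, and the series title names Polycomb targets and the G1/S checkpoint as the subjects of the study.

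The promoters of 3 genes whose places are described below are shown because results turn on them: the KO list had no H3K4me3 peak at the place of Ppp2r2c, Sox2 is a developmental gene at H3K27me3, and Cdkn1a is the neighbour of the deleted gene. Each is the 250 bases before a gene's start in RefSeq on GRCm38.p6, matched by symbol, with every CG in capitals. Positions in that build were not converted to mm9, so it is not shown under which part of a peak a start lies. The dinucleotide CG reads the same on both strands, and the median over 32851 RefSeq promoters was 6 in 250 bases.
Ppp2r2c, chr5:36868260-36868509, plus strand: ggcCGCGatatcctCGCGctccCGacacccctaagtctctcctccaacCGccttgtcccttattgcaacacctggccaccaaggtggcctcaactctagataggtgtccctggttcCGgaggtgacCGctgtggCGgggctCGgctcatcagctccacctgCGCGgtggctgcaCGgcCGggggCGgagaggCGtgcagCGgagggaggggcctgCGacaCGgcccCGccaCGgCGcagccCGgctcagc
Sox2, chr3:34649745-34649994, plus strand: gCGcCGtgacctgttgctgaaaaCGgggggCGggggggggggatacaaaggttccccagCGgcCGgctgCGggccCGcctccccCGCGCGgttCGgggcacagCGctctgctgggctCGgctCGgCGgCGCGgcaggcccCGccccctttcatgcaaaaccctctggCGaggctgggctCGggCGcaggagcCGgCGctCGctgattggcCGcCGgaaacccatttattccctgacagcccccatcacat
Cdkn1a, chr17:29090729-29090978, plus strand, the first listed of 2 starts: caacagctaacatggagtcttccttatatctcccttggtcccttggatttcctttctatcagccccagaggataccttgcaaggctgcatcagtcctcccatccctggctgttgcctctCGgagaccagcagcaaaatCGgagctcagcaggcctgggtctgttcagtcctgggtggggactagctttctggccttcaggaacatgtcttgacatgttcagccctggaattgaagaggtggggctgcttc
Ppp2r2c, which encodes a regulatory subunit of protein phosphatase 2A, had 23 CG, a number reached by 13.3% of all promoters. Sox2, a transcription factor of stem and neural progenitor cells, had 27 (reached by 8.56%). Cdkn1a had 2 (reached by 81.2%) before its first listed start, and its other start was not counted.

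The mm9 places named after genes in this text were located from general knowledge of where the genes lie and not from an annotation, and other regions carry no gene name.

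The KO mock list had fewer and narrower peaks than the WT mock list, and its scores lay at a lower level. H3K4me3 covered 33.4 Mb in WT and 27.1 Mb in KO mock cells, with median peak widths of 2029 and 1723.5 bp. The authors' peak score, -10 times the log10 of the peak's p-value, had a median of 1512 in WT and 1162 in KO. It was at or above 3100, where scores pile up, for 2692 WT peaks (18.1%) and 1153 KO peaks (8.05%). No list held a score under 80, and 6.83% of WT and 9.56% of KO peak numbers were missing from the lists. Scores are printed as the authors gave them, and because their level differs between lists, scores set side by side show no change by themselves. The lists carry no read counts, so depth is unknown, and its part in the differences below was not tested. Ranges in parentheses after a share are 95% Clopper-Pearson (exact) intervals, which reflect only the counting of peaks.

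At the place of lincRNA-p21 and Cdkn1a on chromosome 17, WT mock cells had 4 H3K4me3 peaks and KO mock cells had 3, and each KO peak was narrower than its WT partner. The Cdkn1a peak ran from 29227550 to 29235105 in WT (7556 bp, score 3100) and from 29228393 to 29233670 in KO (5278 bp, score 3037). The WT peak was tied with all WT peaks scored at least 3100, which share percentile 91.0. The KO peak, at percentile 91.4, lay below the tied KO peaks of such scores, at 96.0. These percentiles therefore do not show an equal rank. Just downstream, a WT peak of 1817 bp from 29235129 with a score of 124 had no KO partner. A peak from 29193917 was 3878 bp wide with a score of 3100 in WT and 3179 bp with a score of 1826 in KO, and it lay at H3K27me3 in both genotypes.

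At the place of the lincRNA-p21 start, a narrow WT peak from 29215655 to 29216236 (582 bp, score 1279) matched a KO peak from 29215700 to 29216207 (508 bp, score 175), and its percentile was 44.3 in WT and 11.6 in KO. Over the same stretch the KO mock H3K27me3 list held a peak of 530 bp with a score of 2937, the KO doxorubicin H3K27me3 list held one of 470 bp with a score of 99.5, and neither WT H3K27me3 list held one. In the doxorubicin lists the H3K4me3 peak there was 1779 bp wide with a score of 1405 in WT, and 1270 bp with a score of 3100 in KO. A peak was therefore listed at this start in all 4 conditions, and because the deleted part is not given, these peaks do not check the knockout label.

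Most H3K4me3 peaks were listed in both genotypes, and the peaks that were not were mainly in the WT list. Of the WT mock peaks, 1389 (9.32%, 8.86 to 9.80) overlapped no KO mock peak and are called lost. Of the KO mock peaks, 278 (1.94%, 1.72 to 2.18) overlapped no WT mock peak and are called gained. In lists cut to an equal number of top-scoring peaks the numbers were 959 and 414. With lists of equal length, any excess of lost over gained peaks must come from WT peaks overlapped by several KO peaks. The uncut lists held 552 such WT peaks, and 44 KO peaks overlapped by several WT peaks. The cut is therefore no separate check on which list held more unmatched peaks. Lost and gained here say only whether a list holds a peak, and neither is a tested change. With doxorubicin, in libraries that the mock pair does not share, the same contrast gave 1967 lost (11.9%) and 665 gained peaks (4.41%).

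Lost and gained peaks were the small and weak ones of their lists. Lost peaks had a median width of 1074 bp and a median score of 130, against 2136 bp and 1705 for WT peaks that overlapped a KO peak. Gained peaks had medians of 756 bp and 104. Among WT peaks scored under 100, 328 of 437 (75.1%, 70.7 to 79.0) were lost, and among KO peaks scored under 100, 129 of 535 (24.1%, 20.5 to 28.0) were gained. Lost peaks also outnumbered gained ones at score minimums well above 80, where the lists end. The same minimum was used in both lists although their score levels differ, so these numbers show no change by themselves. At a score of at least 200, 290 of 13114 WT peaks were lost (2.21%) and 24 of 12383 KO peaks were gained (0.194%). At a score of at least 500 the numbers were 22 and 2, and at a score of at least 1000 they were 4 and 0.

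Absence was frequent among narrow WT peaks and rare among wide ones. Of WT peaks up to 1 kb wide, 55.2% were lost. The share was 23.3% between 1 and 1.5 kb, 4.01% between 1.5 and 2 kb and 1.05% between 2 and 3 kb. Of 2440 peaks between 3 and 5 kb wide 2 were lost, and of 366 peaks wider than 5 kb none was, which allows a share of up to 1.00%. Broad H3K4me3 domains were thus present in both lists.

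The lost peaks were scattered over the genome. Among chromosomes 1 to 19 and X, the lost share ran from 6.998% of WT peaks on chromosome 13 (5.15 to 9.25) to 11.8% on chromosome 12 (9.21 to 14.8). Lost peaks without another lost peak as a neighbour in the WT list numbered 1063, and there were 127 runs of 2, 20 of 3 and 3 of 4. The runs of 4 lay at chr19:59240638-59336092, chr5:35621358-35868612 and chr9:44953696-45239778, and all of their peaks lay at H3K27me3 in both genotypes. A lost peak was a median of 26681 bp from the nearest KO peak. Of the 1389, 91 were within 1 kb of one and 274 were more than 100 kb away.

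The KO list covered 6.31 Mb less than the WT list, and most of this lay at peaks present in both. One-to-one pairs, in which 1 WT peak overlapped 1 KO peak and neither overlapped another, covered 29.4 Mb in WT and 24.8 Mb in KO, which is 72.9% of the difference. Lost peaks covered 1.60 Mb (25.4%), gained peaks 0.233 Mb in the other direction (3.70%), and peaks that were split or merged between the lists differed by 0.342 Mb (5.43%). The difference in coverage was therefore mainly one of width.

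KO mock peaks were narrower than their WT partners at nearly all kinds of place. The 12888 one-to-one pairs held 86.5% of WT and 90.0% of KO peaks. Their median width was 2099 bp in WT and 1764 bp in KO, and the median log2 ratio of KO to WT width was -0.23, a ratio of 0.852. The KO peak was the narrower in 85.7% of pairs (85.1 to 86.3). It was over 1.5-fold narrower in 1528 pairs (11.9%) and over 1.5-fold wider in 31 (0.241%). The difference was shared by both sides of a peak: each edge lay a median of 148 bp further in, both edges lay inward in 63.1% of pairs and both outward in 4.48%.

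Small peaks differed most in relative width. When pairs were put in 5 equal classes by the mean of their widths, the median log2 ratio was -0.34 in the narrowest (median 1132 bp) and -0.18 in the widest (median 3266.5 bp), and the KO peak was the narrower in 85.3 to 86.4% of every class. Among the 1024 pairs at the top score in both lists the median log2 ratio was -0.16, and 21 of them were over 1.5-fold narrower in KO and none over 1.5-fold wider.

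Pairs at H3K27me3 differed more. Where an H3K27me3 peak overlapped the WT peak in both WT and KO mock cells, the median log2 width ratio was -0.38 (n = 1621 pairs) and 27.5% of pairs (25.3 to 29.7) were over 1.5-fold narrower in KO. Where neither list had H3K27me3 it was -0.21 (n = 10931) with 9.36% (8.82 to 9.92), and at H3K27me3 in WT alone or KO alone it was -0.28 and -0.35. WT peaks at H3K27me3 in both genotypes had low scores, with 466, 555 and 471 of 2235 in the lowest 3 of 10 equal score classes of the WT list, so pairs were also compared within these classes. In the lowest class the medians were alike, at -0.30 with H3K27me3 and -0.29 without. The medians lay furthest apart in class 4 from the bottom, at -0.42 (n = 291) and -0.23 (n = 1097), with median WT widths of 1759 and 1715 bp. They were closer in class 6, at -0.29 and -0.21, in class 7, at -0.33 and -0.20, and in class 8, at -0.26 and -0.21. In the highest class, with 23 pairs at H3K27me3, they were -0.15 and -0.18.

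**Figure D1:**
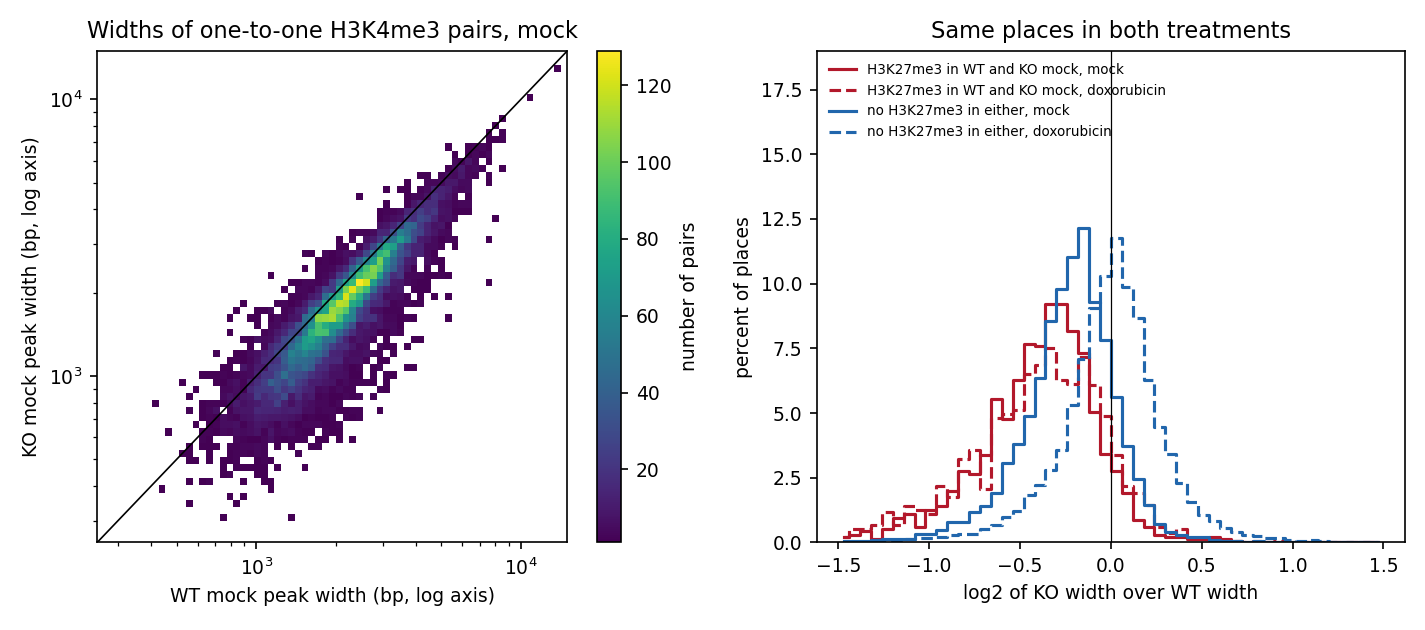
Left, KO against WT mock peak width in bp for the 12888 one-to-one pairs, on log axes, with the line of equal width. Right, the log2 ratio of KO to WT width at places that had a one-to-one pair in both treatments, by H3K27me3 in mock cells, as percent of places; the solid lines are mock and the dashed lines doxorubicin. Most pairs lie below the line, and with doxorubicin the curve for places without H3K27me3 is centred near 0, while the curves for places with H3K27me3 lie at -0.36 in both treatments.

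The libraries from doxorubicin-treated cells, which share none with the mock pair, gave a smaller width difference between the genotypes. The median score stood in the opposite order there, at 1526 in WT and 2141 in KO doxorubicin cells, and its part in the contrast was not tested. Over their 13401 one-to-one pairs the median log2 width ratio of KO to WT was -0.02, with 998 pairs over 1.5-fold narrower (7.45%) and 330 over 1.5-fold wider in KO (2.46%). At the 11900 places with a one-to-one pair in both treatments the medians were -0.23 in mock and -0.02 with doxorubicin. This held for the places without H3K27me3, at -0.21 and 0.01 (n = 10213). At places with H3K27me3 in both mock lists the medians were -0.36 and -0.36 (n = 1368). Since the level of the places without H3K27me3 differed between the treatments, the gap between the classes was larger with doxorubicin. The like medians therefore do not show a like difference at H3K27me3.

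Place by place, the width ratios of the treatments were loosely related, with a Pearson r of 0.385 and a Spearman rho of 0.320 across the 11900 places. Places are not independent replicates, and they share the peak caller and the sequence under the peak. Of 1274 such places over 1.5-fold narrower in KO mock, 28.0% (25.6 to 30.6) were also over 1.5-fold narrower in KO with doxorubicin, against 3.85% of the 10599 places within 1.5-fold in mock. Of the 27 over 1.5-fold wider in KO mock, 15 (55.6%, 35.3 to 74.5) were also wider past this limit with doxorubicin, against 1.91%. The limit of 1.5-fold was the same in both treatments although the median ratio was not, so these shares of narrowed and widened places are not comparable with each other.

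Wide WT peaks were often broken up in the KO list. In all, 552 WT peaks were overlapped by several KO peaks, 523 of them by 2, 26 by 3 and 3 by 4, while 44 KO peaks were overlapped by several WT peaks. The broken WT peaks had a median width of 3703.5 bp, the KO pieces covered a median of 84.2% of it, and the gap between pieces had a median of 116 bp. Of shared WT peaks wider than 5 kb, 34.2% (29.3 to 39.3) were broken, against 0.609% of those up to 2 kb wide.

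The order of the peaks within each list was largely kept. Because score levels differed between lists, each peak was given its percentile by score in its own list, with all scores of at least 3100 tied. The median change from WT to KO was -1.55 points, and 75.8% of pairs lay within 10 points. More than 20 points lower in KO were 345 pairs (2.68%), and more than 20 points higher were 116 (0.900%). A pair at the top score in both lists gained 5.01 points by construction, since fewer KO peaks are tied there. With percentiles taken among matched peaks alone, 309 pairs were lower and 212 higher.

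Pairs that ranked lower in KO were mostly narrower, and they were more frequent at H3K27me3. In the 345 pairs that ranked lower the KO peak was the narrower in 98.0%, with a median log2 width ratio of -0.43. In the 116 that ranked higher it was the narrower in 67.2%, with a median of -0.08. At H3K27me3 in both genotypes the median change was -6.67 points and 6.23% of pairs were more than 20 points lower (4 pairs were higher). Without H3K27me3 the median was -0.68 points and 2.09% were lower. Of the 2423 pairs at the top score in WT, 1024 (42.3%) were also there in KO, while 1024 of the 1044 pairs at the top score in KO were there in WT.

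**Figure D2:**
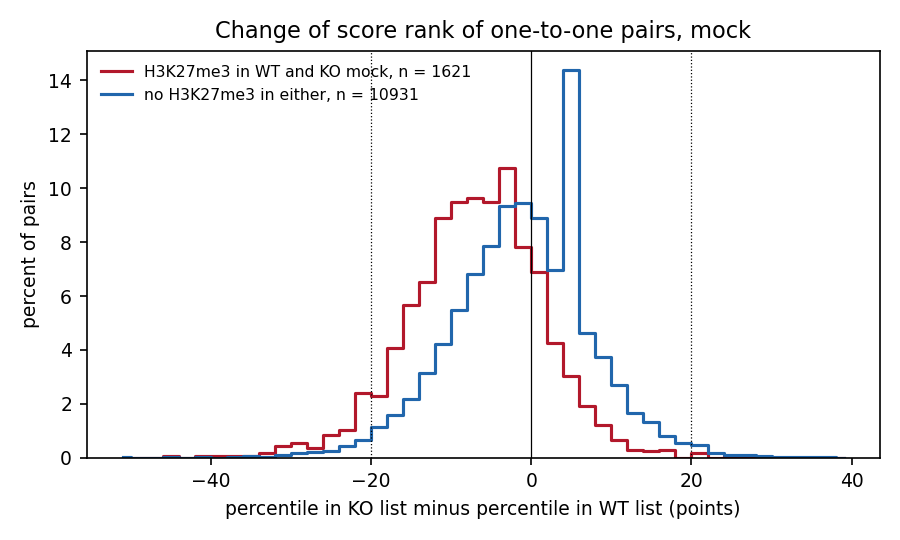
Change of a pair's percentile by score, KO minus WT in points, as percent of pairs, for pairs at H3K27me3 in both mock lists (n = 1621) and at neither (n = 10931); dotted lines mark 20 points either way. The curve for H3K27me3 is centred below 0, at a median of -6.67, and the spike near 5 in the other curve is the pairs at the top score in both lists.

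The same pairs tended to keep their direction with doxorubicin. Of the pairs more than 20 points lower in KO mock, 314 had a one-to-one pair in both treatments. Of these, 263 (83.8%, 79.2 to 87.7) were lower in KO with doxorubicin, 155 of them by more than 20 points, and the median change there was -19.4 points. Of 115 such pairs that were higher in KO mock, 87 (75.7%, 66.8 to 83.2) were higher with doxorubicin, 28 by more than 20 points, with a median change of 10.7 points. For the 11471 pairs within 20 points in mock the median with doxorubicin was -4.32 points, 60.8% being lower. By their medians both sets therefore lay on their own side of this middle value in libraries that had not been used to choose them. A pair at the top score in both doxorubicin lists stood at percentile 90.0 in WT and 82.3 in KO by construction. Such pairs count as lower in KO here, and their part in these shares and medians was not tested.

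H3K27me3 was frequent at lost peaks. An H3K27me3 peak of the same library's condition overlapped 588 of the 1389 lost peaks (42.3%, 39.7 to 45.0), 52 of the 278 gained peaks (18.7%, 14.3 to 23.8) and 1832 of the 13508 shared WT peaks (13.6%, 12.99 to 14.2). Seen from the other side, the KO list lacked 561 of 2235 WT peaks at H3K27me3 in both genotypes (25.1%, 23.3 to 26.95), and 773 of 12264 at neither (6.30%, 5.88 to 6.75). The gained share of KO peaks was 2.92% and 1.82% in these classes. Most lost H3K4me3 peaks at H3K27me3 thus lay where the KO cells also carried H3K27me3, and in 28 of 1389 the mark was listed in KO cells alone.

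The lost share was highest at low WT scores in both classes, and in the lowest 3 of 10 score classes it was higher at H3K27me3. In the lowest 10% of the WT list by score (80.01 to 172), 345 of 466 peaks at H3K27me3 in both genotypes were lost (74.0%, 69.8 to 78.0), and 594 of 969 at neither (61.3%, 58.2 to 64.4). In the next 10% (172 to 381) the shares were 33.2% (29.2 to 37.2) and 18.9% (16.4 to 21.7), and in the 10% after that 6.37% (4.34 to 8.97) and 1.67% (0.959 to 2.70). Above these 3 classes 2 peaks of the first class and 1 of the second were lost.

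**Figure D3:**
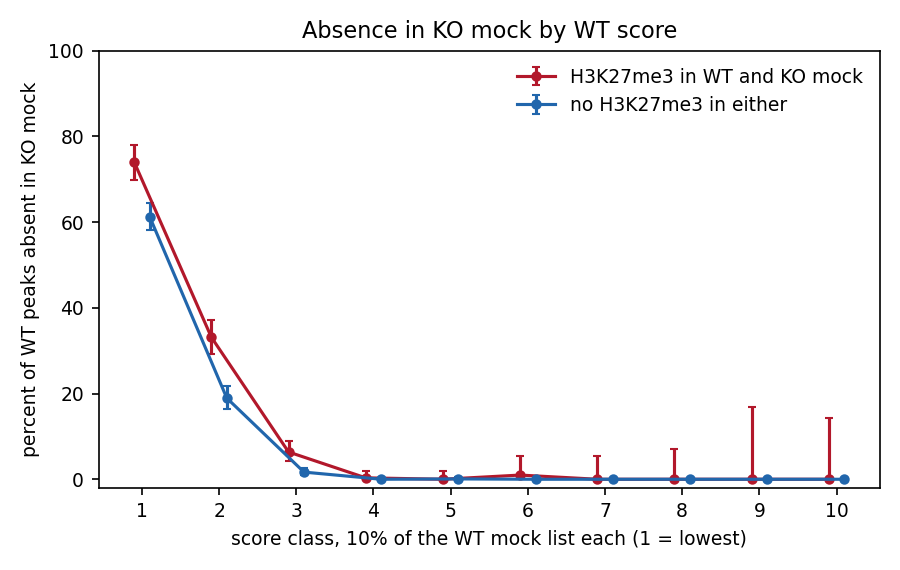
Percent of WT mock peaks without a KO mock peak, by score class of 10% of the WT list, for WT peaks at H3K27me3 in both mock lists and at neither; bars are exact 95% binomial intervals. In the lowest 3 classes the share at H3K27me3 is the higher of the pair, at 74.0, 33.2 and 6.37%, and in the upper classes both are near 0.

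Loss was also more frequent in wider H3K27me3 domains. Among WT H3K4me3 peaks at H3K27me3 in both genotypes, 18.6% (15.4 to 22.1) were lost where the WT H3K27me3 peak was up to 3 kb wide, 24.0% (21.7 to 26.5) between 3 and 10 kb and 36.3% (31.8 to 40.9) above 10 kb. The H3K4me3 score was not matched in this comparison. The H3K27me3 peak itself was narrower in KO at lost and at kept places alike, with median log2 ratios of -0.26 (n = 561) and -0.23 (n = 1674). It was the wider in KO at 20.7% of lost and 27.7% of kept places. The whole KO mock H3K27me3 list was narrower, with a median width of 1391 bp and 36.3 Mb covered, against 2015 bp and 48.0 Mb in WT.

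The places of lost peaks differed in the doxorubicin lists by their H3K27me3 class. Of the 1389 lost peaks, 617 (44.4%) overlapped a WT doxorubicin peak and no KO doxorubicin peak, 77 (5.54%) the reverse, 535 (38.5%) a peak in both and 160 (11.5%) in neither. At H3K27me3 in both genotypes, 389 of 561 (69.3%, 65.3 to 73.1) were in the WT doxorubicin list alone and none was in the KO doxorubicin list alone, which allows a share of up to 0.655%. At neither, 26.9% (23.8 to 30.2) were in the WT doxorubicin list alone, 9.83% (7.82 to 12.2) in the KO list alone and 47.0% in both. For scale, the shared WT peaks at H3K27me3 in both genotypes were in the WT doxorubicin list alone in 10.8% of cases (9.31 to 12.3), and those at neither in 0.305%. Score was not matched between lost and shared peaks, whose medians over all classes were 130 and 1705, and its part here was not tested.

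Gained peaks are given by the same classes. At neither H3K27me3 list, 74 of 223 gained peaks (33.2%, 27.04 to 39.8) were in the KO doxorubicin list alone and 16 (7.17%, 4.16 to 11.4) in the WT list alone. At H3K27me3 in both genotypes, 4 of 50 (8.00%, 2.22 to 19.2) were in the KO doxorubicin list alone and 22 (44.0%, 30.0 to 58.7) in the WT list alone. For scale, the shared KO peaks at H3K27me3 in both genotypes were in the WT doxorubicin list alone in 11.4% of cases (9.95 to 13.1) and in the KO doxorubicin list alone in 0.0602%. Both shares of gained peaks were thus above those of shared peaks of the same class. Score was not matched in this comparison. Over all classes, its median was 104 for gained and 1190 for shared KO peaks, and its part in the shares was not tested.

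**Figure D4:**
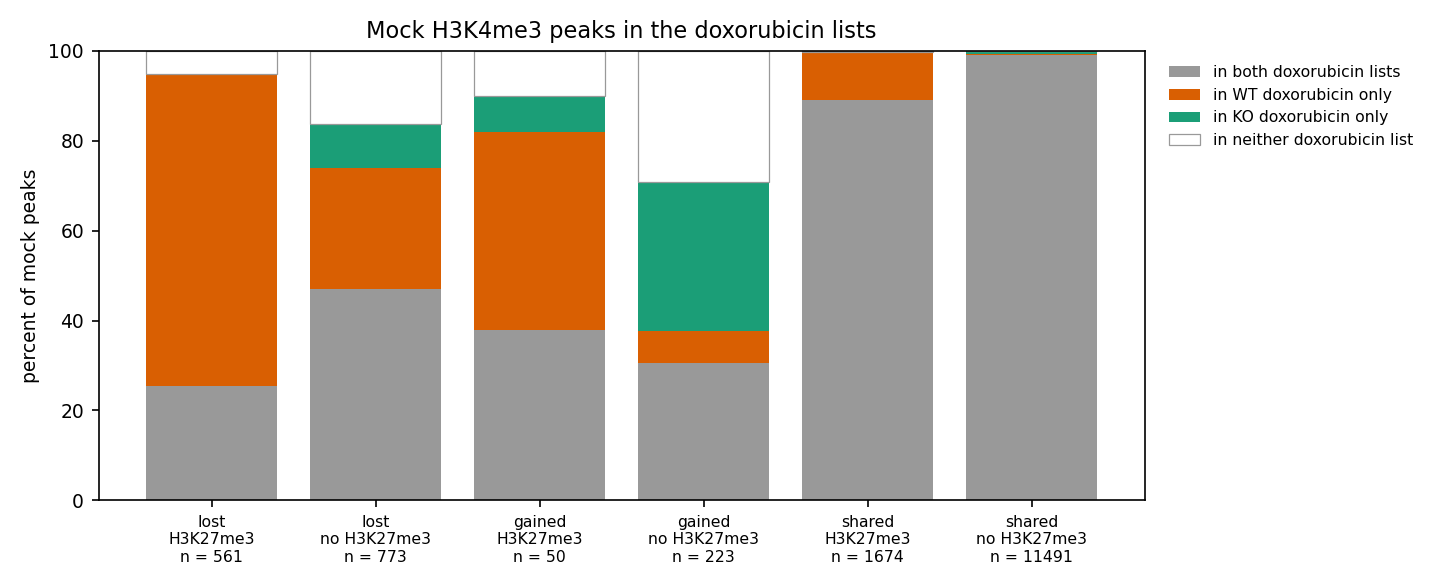
Percent of lost, gained and shared WT mock peaks that overlap a peak in both doxorubicin lists, in 1 of them or in neither, for places at H3K27me3 in both mock lists and at neither, with the number of peaks under each bar. The bar of lost peaks at H3K27me3 is filled mostly by peaks of the WT doxorubicin list alone, at 69.3%.

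The lost peak with the highest score lay at the place of Ppp2r2c on chromosome 5, from 37259203 to 37261931. WT mock cells had a peak of 2729 bp with a score of 1548 there, and the nearest KO mock peak was 36773 bp away. With doxorubicin the WT peak was 2869 bp wide with a score of 3100, and the KO list had none, so the H3K4me3 peak was listed in both WT lists and in no KO list. H3K27me3 covered the place in all 4 conditions: the overlapping peak was 13287 bp wide with a score of 2046 in WT mock and 7988 bp with a score of 3203 in KO mock.

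Sox2 and Ntrk3, the latter encoding the receptor of neurotrophin-3, had a narrower peak in KO mock cells, which also stood lower in its list. At Sox2 the mock peak was 2980 bp wide with a score of 910 in WT and 2156 bp with a score of 317 in KO, at percentiles of 35.1 and 20.2. At Ntrk3 it was 2881 bp with a score of 876 in WT and 1544 bp with a score of 387 in KO, at percentiles of 34.0 and 23.2. Both places lay at H3K27me3 in both mock lists, and with doxorubicin each had an H3K4me3 peak in WT cells and none in KO cells. The places of Ppp2r2c, Sox2 and Ntrk3 were chosen with earlier results of these data known, so their common direction is a description only.

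The other lost peaks at the top of the score order were less uniform. After Ppp2r2c came chr9:50560863-50563638 (score 1154), chr5:114539915-114542001 (score 1081) and chr15:102750317-102753127 (score 1076), the last in the HoxC cluster. All 10 highest-scoring lost peaks had a WT doxorubicin peak and 8 also had a KO doxorubicin peak, while 3 lay at H3K27me3 in both mock lists.

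The highest-scoring gained peaks were led by chr2:98502240-98503302 (1063 bp, score 648) and chr9:35112356-35113327 (972 bp, score 557). Of the 10, 9 had a KO doxorubicin peak, 4 had a WT doxorubicin peak and none lay at H3K27me3 in both mock lists. One of them, at chr5:45189367-45191058, was 570172 bp from the nearest WT peak, and the KO doxorubicin peak there had a score of 747. The peak at chr9:3024368-3027974 was in the KO mock list alone, and another lay on an unplaced contig. No blacklist of artefact-prone places was applied, and the part of such places in these peaks was not tested.

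The 4 Hox clusters, which hold the homeobox genes of body position and are classical Polycomb targets, all had less H3K4me3 coverage in KO mock cells. Peaks covered 53824 bp of HoxA in WT and 37066 bp in KO, 36893 and 27938 bp of HoxB, 32851 and 19327 bp of HoxC, and 27787 and 17321 bp of HoxD. KO coverage was thus 68.9% of WT in HoxA, 75.7% in HoxB, 58.8% in HoxC and 62.3% in HoxD, against 27.1 of 33.4 Mb over the whole lists. In order from HoxA to HoxD, 2, 2, 3 and 3 WT peaks were lost, 0, 1, 0 and 0 were gained, and 13 of 13, 8 of 9, 5 of 7 and 8 of 9 one-to-one pairs were narrower in KO. Narrower in KO were 85.7% of all pairs and 92.6% of those at H3K27me3 in both genotypes. H3K27me3 of the same condition overlapped 10 of 16, 4 of 14, 12 of 12 and 13 of 13 WT peaks, and 12 of 16, 13 of 13, 13 of 13 and 11 of 12 KO peaks. Over the whole WT list 9.32% of peaks were lost, and 25.1% of those at H3K27me3 in both genotypes. With doxorubicin, peaks covered 42807 bp of HoxA in WT and 36827 bp in KO, 38907 and 36907 bp of HoxB, 39653 and 35749 bp of HoxC, and 23080 and 14882 bp of HoxD.

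HoxC, the cluster with the lowest share of WT coverage in KO, held 12 WT and 13 KO peaks, because pieces outnumbered the losses. Its 3 lost peaks lay side by side at one end, from 102750317 (2811 bp, score 1076), 102773064 (986 bp, score 97.0) and 102784655 (2603 bp, score 363). With doxorubicin all 3 places had an H3K4me3 peak in both genotypes. The KO doxorubicin peaks there had scores of 151, 137 and 526, and the highest WT doxorubicin scores were 1982, 124 and 686. The WT peak from 102828019 to 102832836, 4818 bp wide with a score of 1925, was overlapped by 4 KO peaks of 2044, 676, 819 and 733 bp. Single pairs were 3689 bp in WT and 1609 bp in KO at 102839551, 2487 and 952 bp at 102844030, and 2115 and 992 bp at 102856545, whereas the pair at 102820670 was wider in KO, at 2552 and 2911 bp.

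**Figure D5:**
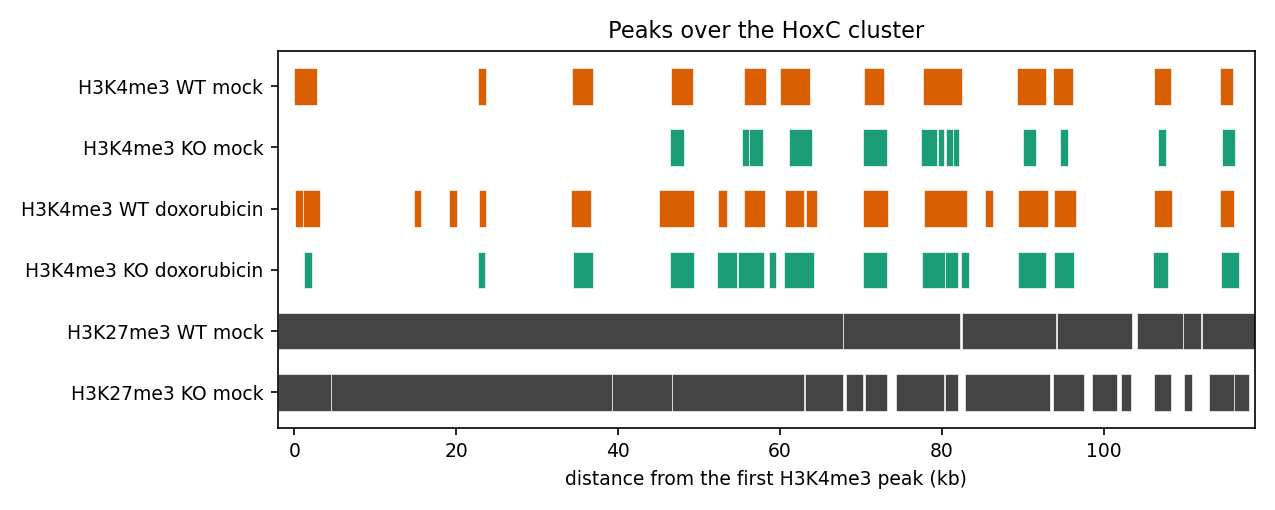
Peaks over the HoxC cluster, as distance in kb from the first H3K4me3 peak, with 1 row for each H3K4me3 list and for the H3K27me3 lists of mock cells; each box is a peak drawn to scale. The 3 boxes at the left of the WT mock row have no counterpart in the KO mock row, and the WT box near 80 kb stands above 4 small KO boxes.

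HoxA held the Hox peak with the highest WT score. Its widest peak was 6705 bp in WT (from 52170567, score 3185) and 6391 bp in KO (score 2033), and a 6256-bp WT peak from 52193301 was overlapped by 3 KO peaks of 2190, 1258 and 870 bp. The WT peaks lost from HoxA were those at 52122108 (1416 bp, score 196) and 52128612 (1387 bp, score 126). In HoxD a 5019-bp WT peak from 74517060 with a score of 1860 was overlapped by KO peaks of 1021, 2065 and 1000 bp, the highest of which had a score of 439. Some Hox peaks were not narrower. In HoxD the pair at 74542487 (WT score 1558) was 1871 bp in WT and 1930 bp in KO. The HoxB pair at 96168233 was 1608 bp in WT and 1798 bp in KO. A HoxB KO peak of 3970 bp was a merge: it overlapped the WT peak of 2607 bp at 96212836 and the next, of 1178 bp at 96215445.

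At the Ink4 place on chromosome 4, which holds the genes of the cyclin-dependent kinase inhibitors Cdkn2a and Cdkn2b, all 3 WT peaks were kept and narrower in KO. They were 2356, 3996 and 4316 bp wide in WT and 1471, 2512 and 3372 bp in KO, a median log2 ratio of -0.67, against -0.23 over all pairs. Their scores were 502, 3100 and 2452 in WT and 331, 2865 and 1192 in KO, and their percentiles differed by a median of -3.12 points. With doxorubicin the widths were 1442, 3253 and 3571 bp in WT and 1198, 3564 and 3407 bp in KO, so the KO peak was then wider at the middle place.

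Genes of the fibroblast matrix carried H3K4me3 in both lists and no H3K27me3 in any list. At Col1a1 (type I collagen, alpha 1 chain) the main peak was 5275 bp in WT and 5336 bp in KO, both at a score of 3100, and a KO peak of 1225 bp with a score of 183 followed it downstream with no WT partner. At Col1a2 (alpha 2 chain) the main peak was 4061 bp with a score of 1657 in WT and 3474 bp with a score of 1357 in KO, and 2 further KO peaks of 1841 and 865 bp had no WT partner. The first of these, with a score of 281, was among the 10 highest-scoring gained peaks and lay 186 bp from the WT peak, and a KO doxorubicin peak with a score of 489 covered it. With the KO peaks that had no WT partner counted, KO coverage was 111% of WT at Col1a1 and 152% at Col1a2. This was in the opposite direction to the lists as a whole. A smaller Col1a1 pair, at 94794137, was 1167 bp in WT and 606 bp in KO.

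Fn1, the fibronectin gene, had 1 WT peak of 8027 bp with a score of 3100, overlapped by 3 KO peaks of 554, 5317 and 967 bp, of which the longest had a score of 2489. KO coverage there was 85.2% of WT, close to the median width ratio of all pairs, 0.852. These 3 genes are the sole cell type markers read here, and markers of other cell types were not analysed here.

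Some of the widest H3K4me3 peaks were nearly equal in width. At Smad7, an inhibitor of TGF-beta signalling, the peak was 13671 bp in WT and 13170 bp in KO. At Tpm1, a tropomyosin gene, it was 10704 and 9944 bp, and at Cyr61, a secreted matrix protein, 8653 and 8488 bp. The log2 ratios of -0.05, -0.11 and -0.03 were all nearer to 0 than the -0.22 of the 240 pairs wider than 5 kb in WT, and all 3 peaks were at the top score in both lists. Among the 5 widest one-to-one pairs the strongest narrowing was on chromosome 2 from 13494059, at 8664 bp in WT and 5491 bp in KO, a log2 ratio of -0.66, and with doxorubicin peaks covered 8652 bp of that place in WT and 5754 bp in KO.

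The replication-dependent histone genes lie in dense clusters, and there the KO mock list had more peaks and less coverage. On chromosome 13 there were 70 WT and 83 KO peaks, covering 155663 and 117015 bp, with 11 WT peaks broken into several KO peaks, 3 lost and 4 gained. Over the whole lists 3.71% of WT peaks were broken, 9.32% were lost and 1.94% of KO peaks were gained. On chromosome 3 there were 7 WT and 8 KO peaks, covering 14210 and 11959 bp. With doxorubicin the coverage stood in the opposite order, at 142078 bp in WT and 146049 bp in KO on chromosome 13. On chromosome 3 it was then 12480 and 16152 bp. The median log2 width ratios of one-to-one pairs in mock cells were -0.34 on chromosome 13 (n = 54) and -0.23 on chromosome 3 (n = 6).

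Regions at the ends of the width and rank orders were chosen by their values and are given as a description. Among pairs with a score of at least 100 in both lists, the strongest narrowing was at chr1:162281166-162282500, at 1335 bp in WT and 299 bp in KO, followed by chromosome 13 from 23836757 (2946 and 759 bp) and chromosome 15 from 97831680 (3900 and 1073 bp). Of the 5 strongest, 2 lay at H3K27me3 in both mock lists, both on chromosome 15, and these 2 had no KO doxorubicin peak. The strongest widening was at chrX:7366343-7368204, at 908 bp in WT and 1862 bp in KO, and chr7:38408843-38410458, at 795 and 1616 bp. None of the 5 strongest widenings lay at H3K27me3. For scale, of all 12888 pairs 1621 lay at H3K27me3 in both mock lists and 10931 at neither.

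The 5 largest changes to a lower rank were at places without H3K27me3, as were 10931 of all 12888 pairs. Such large falls need a high WT rank. In the highest of 10 WT score classes, 23 of 1363 pairs lay at H3K27me3 in both mock lists. The absence of H3K27me3 at these 5 places therefore says little about them. At chr11:48681612-48686473 the score was 3155 in WT and 857 in KO, a change of -50.9 points, with widths of 4862 and 3631 bp, and at chr7:142127748-142131116 it was 2862 and 508, a change of -50.4 points. The largest change to a higher rank was at chr8:113557463-113560246, with scores of 1371 in WT and 2429 in KO, a change of 36.8 points, at nearly equal widths of 2706 and 2784 bp. At all 5 places that changed most to a higher rank the KO doxorubicin peak had a score of 3100 and the WT doxorubicin peak one of 1512 to 1851. At all 5 that changed most to a lower rank the WT doxorubicin peak had a score of 3100 and the KO doxorubicin peak one of 875 to 3100.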

How the data were processed

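ChIP-seq peak lists of 8 libraries were used; the 4 inputs were not. The submitters' processing notes name mm9 as the build and, as tools, Bowtie 0.12.7 with MACS 1.4.2. Per the file headers, the deposited score is −log10 of the peak's p-value times 10, as the authors' peak caller gave it. It was used to describe peaks and to rank, class or filter them within a list, with scores of at least 3100 tied for ranking. Score levels differ between lists, so scores of different lists set side by side, and a score minimum used in both, show no change by themselves. The smallest score in every list is just above 80. Starts and ends are the deposited positions, and starts were taken to count from 0 and are printed plus 1.

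Peaks were compared by an overlap of at least 1 bp. Width was compared in one-to-one pairs, past 1.5-fold either way, and percentile by score past 20 points. H3K27me3 class was set by overlap with the WT and KO mock H3K27me3 peaks. No test was run, since each group had 1 library. Regions were named by rule: the 10 highest-scoring lost and gained peaks, the 5 largest changes of width and of rank either way among pairs scored at least 100, the 5 widest pairs, and places of genes given with the request. The members, gene places and classes were chosen with earlier results of these data known. Gene lists and cell type markers that need an mm9 annotation were not analysed here. The overlap and pairing steps were tested on simulated peaks. Alternatives were other score minimums, overlaps, distances and joining of peaks, and their effect is given at the end. The software was matplotlib 3.10.9, scipy 1.17.1, pandas 2.3.3 and numpy 2.4.6 under Python 3.11.15.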

Additional observations from a re-analysis of the deposited data

Results flagged for a closer look

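Of the 1389 WT mock H3K4me3 peaks absent in KO mock, 77 (5.54%) lay at places with a peak in KO doxorubicin and none in WT doxorubicin. The list that held a peak there was thus that of the other genotype. The reverse, a peak in WT doxorubicin alone, held for 617 (44.4%). Of shared WT peaks, 0.518% were in the KO doxorubicin list alone. Of the 278 KO mock peaks absent in WT mock, 38 (13.7%) lay at places with a peak in WT doxorubicin and none in KO doxorubicin. A peak in KO doxorubicin alone was listed for 79 (28.4%). Of shared KO peaks, 1.75% were in the WT doxorubicin list alone. Lost and gained peaks had low scores, with medians of 130 and 104, and the part of this in these counts was not tested. The difference between treatments was not tested, since each condition had 1 library.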

How the results depend on the processing

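Over 18 results and 65 alternative values, 46 stayed within the limit set for them, 19 moved and 0 reversed. Only the median log2 width ratio could be labelled reversed. The limit was 1.5-fold for counts, and the 95% interval of the main value for shares and for the median. At a score of at least 200 against the whole other list, chosen after seeing the data, 290 peaks were lost and 24 gained. With equal numbers of top peaks, 959 were lost and 414 gained, a setting that narrows the excess by construction. The excess left there comes from WT peaks overlapped by several KO peaks, so its direction is no separate check. The median log2 width ratio was -0.22 with a reciprocal overlap of 50%, -0.22 (-0.221) after joining peaks under 3 kb apart, when 56 pairs were wider, and -0.16 at the score ceiling in both lists, where 21 pairs were narrower and 0 wider. With percentiles among matched peaks, 309 pairs were lower and 212 higher. With H3K27me3 required in all 4 conditions, the shares at H3K27me3 were 38.2% of lost, 12.9% of gained and 10.6% of shared peaks; for shared peaks it was 15.4% within 1 kb and 12.9% with H3K27me3 scores of at least 100. In both doxorubicin lists were 42.1% of lost and 41.01% of gained peaks within 1 kb, and 43.2% and 42.3% at scores of at least 100, where 3.86% of lost peaks were in the KO doxorubicin list alone. The causes of these shifts were not tested. No paired analysis was possible because each group had 1 library, and for the same reason no library could be left out. Depth is unknown, so no limit could be set on peaks too weak to be listed.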
